A study of Mus musculus with 20 samples.

Results

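The 14 RNA-seq libraries made from mouse forebrain slices after 24 h in serum were set in order of their RNA from 4 fibroblast genes of the meninges. The CPM values (read counts scaled to library size) of Dcn, Lum, Ogn and Foxc1 were summed, and the libraries were chosen by this sum: the 7 with the highest values were compared with the 7 lowest, with genotype as a covariate. These 14 libraries are those of the 24 h table, of 20 libraries in the series. The 4 genes chose the groups and are given as a description only. Their order rests on measured values, so a gene that differs between the 2 groups is a gene that goes with the 4, and no treatment is tested.

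Slices came from pups at postnatal day 4 and stood in DMEM with 5% horse serum, per the sample labels, while the series text names HBSS. At 24 h there were 3 heterozygous (Het) female, 3 Het male, 4 knockout (KO) female and 4 KO male libraries for Tnfaip6. Its product, TSG-6, is secreted and attaches to hyaluronan, a long sugar chain of the brain matrix. The treatment text at 24 h speaks of WT slices, and the titles and genotype fields, which say heterozygous, were followed. At 4 h there were 3 wild-type (WT) and 3 KO libraries, in the same serum. The labels name no strain or allele, and do not say whether libraries came from separate or pooled pups. The p-values therefore describe spread among libraries, which may be technical. The KO libraries are called KO-labelled because Tnfaip6 RNA was read in all 8 of them at 24 h, between 5.08 and 7.96 CPM, against 3.43 to 6.65 CPM in the Het libraries.

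The meninges are the layered membranes around the brain. Their fibroblasts lay down collagen and small proteoglycans, form the arachnoid barrier, and release retinoic acid and chemokines that act on the cortex beneath. Dcn (decorin) and Ogn (osteoglycin) are small leucine-rich proteoglycans, as is Lum (lumican), and Foxc1 is a forkhead transcription factor needed for meningeal development. A slice cut at the brain surface can carry more or less of this tissue. In bulk RNA, fewer cells of a type and less RNA per cell cannot be told apart.

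The 4-gene sum ran from 41.8 CPM in KO female 3 to 170.5 CPM in KO male 1. The 7 higher sums were 170.5 (KO male 1), 102.6 (KO female 1), 99.3 (KO male 4), 98.1 (KO male 3), 92.5 (Het female 1), 91.1 (KO male 2) and 90.9 CPM (Het female 2). The 7 lower sums were 89.6 (KO female 2), 83.8 (Het female 3), 81.6 (KO female 4), 76.6 (Het male 3), 64.8 (Het male 1), 62.0 (Het male 2) and 41.8 CPM (KO female 3). The line between the groups thus fell between 90.9 and 89.6 CPM, with no gap there, and 12 of the 14 sums lay between 62.0 and 102.6 CPM. Dcn made up 62.4% to 83.4% of each sum, so the order is largely an order of Dcn.

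**Figure D1:**
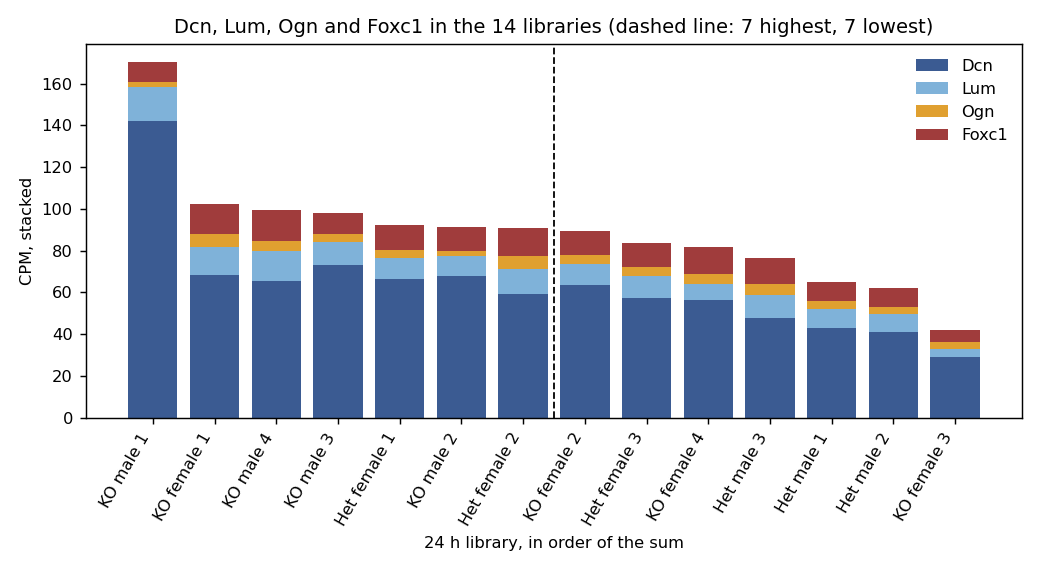
Stacked CPM of Dcn, Lum, Ogn and Foxc1 (vertical axis) in each of the 14 libraries at 24 h, from the highest to the lowest sum, with a dashed line between the 7 highest and the 7 lowest. Dcn fills most of each bar, KO male 1 stands above the others at 170.5 CPM, and the bars on either side of the dashed line are of like height.

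The 4 genes did not move together in every library. KO male 1 had the highest Dcn (142.2 CPM, next 73.2) and the highest Lum (16.1 CPM), but its Ogn was 2.53 CPM, near the lowest of 2.48, and its Foxc1 9.69 CPM was within the range of the lower group (5.37 to 12.7). KO female 3 had the lowest Dcn (29.0 CPM), Lum (3.71 CPM) and Foxc1 (5.37 CPM). Across the 14 libraries, which share 1 table, Pearson's r of log2 values was 0.80 for Dcn with Lum, 0.46 for Dcn with Foxc1 and -0.18 for Dcn with Ogn. Without KO male 1 the value for Dcn with Foxc1 was 0.80, and without KO female 3 it was 0.023. A ranking by the mean of the 4 standardised log2 values, which gives each gene equal weight, kept 5 of 7 libraries in each group.

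Library totals were 8482933 to 18051300 counts, and no pair of libraries agreed within sampling noise (chi-square per degree of freedom 3.16 to 13.3 over 91 pairs). KO female 3 was the deepest library. KO female 2 did not match its sex label: its Xist level was 0 CPM and its level of the Y-linked Ddx3y 76.3 CPM. Het male 1 had 10.6 CPM of Xist beside 64.8 CPM of Ddx3y, while the other libraries labelled male had at most 0.550 CPM of Xist. Choroid plexus RNA was uneven: Ttr, the main product of that epithelium, was at 2669 CPM in KO female 3, 1449 CPM in KO female 1 and 450.4 CPM in KO male 3, and at no more than 0.806 CPM elsewhere.

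The comparison of the 7 higher with the 7 lower libraries called no gene. Of 15798 genes tested besides the 4, edgeR's quasi-likelihood test with Benjamini-Hochberg adjustment called 0 (0%) at an adjusted p of 0.05, and the smallest adjusted p was 0.99988. At an unadjusted p below 0.05, 149 genes were higher (0.943%) and 122 lower (0.772%). Both directions together held fewer genes than a threshold of 0.05 passes by chance. DESeq2 also called 0, with 137 and 103 genes at an unadjusted p below 0.05. On simulated counts at this group size, the test recovered 96% of 2-fold and 79% of 1.5-fold changes. These shares come from simulated counts and may not carry over to the libraries here. The 0 calls therefore do not exclude differences of 1.5-fold. The 4 genes of the rule chose the groups, so no test is read for them. As a description, the 2 groups overlapped in each of Dcn, Lum, Ogn and Foxc1. Ogn had the smallest log2 difference of the 4, at 0.11 ± 0.21 (SE), so the split did not separate the groups by Ogn. As the groups overlapped in each gene of the rule and no other gene was called, they are named higher-sum and lower-sum here. The names meninges-rich and meninges-poor are not used.

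A single gene had 7 values in the one group that did not overlap those in the other (0.00633% of genes tested). This was Pcgf1, a Polycomb-group RING finger protein, named here after its values were seen. Among so many genes tested, a few such splits come by chance, so Pcgf1 is given as a description only. Pcgf1 lay at 6.41 to 8.83 CPM in the higher-sum libraries and at 8.94 to 10.4 CPM in the lower-sum ones. Its log2 difference was -0.34 ± 0.08 (SE, unadjusted p = 0.000892, not passing adjustment in edgeR).

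Lists of meningeal genes leaned towards the higher-sum libraries by small amounts, with 0 members called in each. Over all genes tested, 48.6% had a log2 difference above 0 and the median was -0.00. Of general fibroblast markers 15 of 20 tested lay above 0, with a median of 0.18. Among arachnoid barrier markers it was 9 of 12 (median 0.15), among pial fibroblast markers 7 of 9 (0.11), and among dural fibroblast markers 8 of 10 (0.10). Within Het libraries the medians of the general, arachnoid, pial and dural lists were 0.10, 0.33, 0.15 and 0.05. Within KO-labelled libraries they were 0.17, 0.06, 0.13 and 0.10. The summed level of the pial list was 835.2 to 1142 CPM in the higher-sum libraries (median 929.1) and 704.8 to 1069 CPM in the lower-sum ones (median 980.1), so its median was lower in the higher-sum group. The pial marker Lama1, a laminin chain of the basement membrane at the brain surface, had a log2 difference of 0.38 ± 0.12 (SE), at 7.6 to 11.7 CPM against 5.93 to 9.37 CPM. Cxcl12, the chemokine by which meninges guide migrating neurons, had 0.26 ± 0.13, at 31.5 to 46.6 CPM against 22.5 to 47.7 CPM. Mgp (matrix Gla protein, a dural marker) had 0.57 ± 0.29, with 11 to 30.1 CPM against 4.49 to 23.6 CPM. For each of these 3 genes the ranges of the groups overlapped.

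Transcription factors and transporters of the meninges leaned the same way over all libraries, but the transporters did not within KO-labelled ones. Of 20 meningeal transcription factors tested, 13 lay above 0 (median 0.12, within Het libraries 0.25, within KO-labelled libraries 0.12). Twist1, a mesenchymal factor, and Tbx15 had log2 differences of 0.68 ± 0.35 and 0.44 ± 0.24 (SE). Ebf2 and Ebf3, factors also made by Cajal-Retzius neurons, had -1.43 ± 0.52 and -1.18 ± 0.45. Both Ebf genes were highest in KO female 3, with 7.26 CPM of Ebf2 and 17.2 CPM of Ebf3, against at most 2.82 and 9.47 CPM in the other 13. Of 18 solute transporters 12 lay above 0 (median 0.11). Within Het libraries the median of this list was 0.35 and within KO-labelled libraries -0.03. Slc22a2, an organic cation transporter, had 0.86 ± 0.36, Slc13a4, a sulfate transporter, 0.46 ± 0.20, and Slc6a12, a betaine and GABA transporter, 0.69 ± 0.31. Over the 14 libraries Slc22a2 lay at 0.297 to 2.88 CPM, Slc6a12 at 0.554 to 4.27 CPM and Twist1 at 0.332 to 1.76 CPM. At such low levels a difference rests on few reads.

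Medians of the matrix and signalling lists ran from 0.01 to 0.11, with 0 members called. Of the 8 tested small leucine-rich proteoglycans other than the genes of the rule, 4 were above 0 (0.01). Of 15 fibrillar and fibril-associated collagens 10 were above 0 (median 0.09), of 19 basement membrane genes 13 (0.05) and of 24 elastic fibre and matrix glycoprotein genes 17 (0.06). Of 32 meningeal growth factors and ligands 24 were above 0 (0.08), among them Bmp6 at 0.33 ± 0.14 (SE) and Il33, an alarmin cytokine, at 0.62 ± 0.22. Of 26 matrix proteases and inhibitors 21 were above 0 (0.06), with Mmp2 (gelatinase A) at 0.24 ± 0.10 and Timp1, a metalloprotease inhibitor, at 0.79 ± 0.35. Of 16 retinoic acid genes 12 were above 0 (0.11), of 20 collagen processing enzymes 13 (0.03) and of 22 TGF-beta and BMP response genes 16 (0.08). The fibroblast marker Serping1, the inhibitor of complement C1, had 0.37 ± 0.15.

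**Figure D2:**
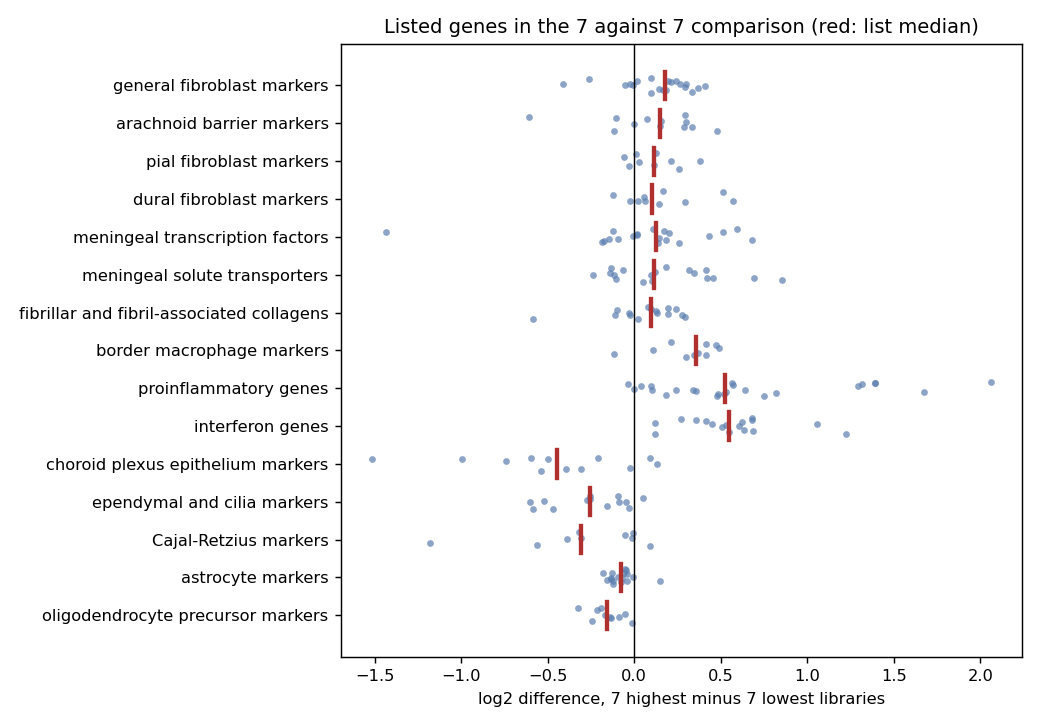
Log2 difference between the 7 higher-sum and 7 lower-sum libraries (horizontal axis) for each tested member of 15 gene lists, with the list median in red and the 4 genes of the rule left out. The fibroblast and meningeal lists have medians of 0.09 to 0.18, the border macrophage, proinflammatory and interferon lists 0.36 to 0.54, and the choroid plexus, ependymal and Cajal-Retzius lists -0.45 to -0.26.

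The lists that leaned most were not meningeal. Of 24 proinflammatory genes 23 lay above 0 (median 0.53) and of 17 interferon genes 17 (median 0.54), with 0 called. Within KO-labelled libraries the median of the proinflammatory list was 0.92 and within Het libraries -0.07. The summed level of the proinflammatory list was 308.3 to 1486.5 CPM in the higher-sum libraries (median 379.9) and 270.5 to 428.6 CPM in the lower-sum ones (median 392.4). KO male 1 alone set the top value. Interferon genes summed to 136.6 to 565.8 CPM (highest in KO male 3) against 121.0 to 379.7 CPM. Mx1, an interferon-induced GTPase, had a log2 difference of 1.23 ± 0.55 (SE), at 0.236 to 5.49 CPM against 0.166 to 2.82 CPM.

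Markers of other cell types were read beside these lists. Border macrophages, which live in the meninges and around vessels, had 9 of 10 tested markers above 0 (median 0.36), but their summed level overlapped, at 134.9 to 179.5 CPM against 134.7 to 196.7 CPM. Of their markers Mrc1, the mannose receptor, had 0.21 ± 0.17 (SE), Cd163, a scavenger receptor, 0.49 ± 0.26, and F13a1, a coagulation factor subunit, 0.41 ± 0.21. Endothelial markers had 9 of 19 above 0 (median -0.01) and mural markers 5 of 12 (-0.02). Cldn5, a tight junction protein of brain endothelium, was at 37.4 to 52.8 CPM in the higher-sum and 37.3 to 56.1 CPM in the lower-sum libraries.

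Choroid plexus markers had 2 of 12 above 0 (median -0.45) and ependymal markers 1 of 13 (-0.26). The summed choroid plexus level was 166.9 to 1768 CPM in the higher-sum libraries (median 189.3) and 136.5 to 3048 CPM in the lower-sum ones (median 170.2). It was highest in KO female 3, and its median was higher in the higher-sum group. Foxj1, the factor of motile cilia, was at 85.6 CPM in KO female 3 and at 21.7 to 53.5 CPM in the other 13. Within Het libraries, none of which carried Ttr above 0.806 CPM, the median log2 differences were 0.01 (choroid plexus) and 0.21 (ependymal). Cajal-Retzius markers had 1 of 9 above 0 (-0.31), although Reln, their defining secreted protein, had 0.09 ± 0.08 (SE). The part of choroid plexus tissue in the differences of these lists was not tested.

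Neuronal lists lay near 0, and lists of astrocytes and the oligodendrocyte lineage leaned towards the lower-sum libraries, with 0 members called. Excitatory cortical markers had 9 of 20 above 0 (median -0.00) with Slc17a7 at -0.09 ± 0.11 (SE), inhibitory markers 11 of 15 (0.03) with Gad1 at 0.03 ± 0.05, and striatal markers 10 of 16 (0.02) with Ppp1r1b at 0.08 ± 0.17. Astrocyte markers had 1 of 17 above 0 (-0.08; Aqp4 -0.08 ± 0.11), oligodendrocyte precursor markers 0 of 10 (-0.16; Sox10 -0.19 ± 0.10) and myelin markers 1 of 9 (-0.15; Mbp -0.13 ± 0.05). Within Het libraries the medians of these 3 lists were 0.01, -0.04 and 0.08, and within KO-labelled libraries -0.13, -0.20 and -0.31. Microglia markers had 5 of 15 above 0 (-0.04), Schwann and melanocyte markers 1 of 4 (-0.10), bone and cartilage markers 3 of 10 (-0.16), cell cycle genes 12 of 24 (0.00) and mitochondrially encoded genes 10 of 10 (0.11). Tissue from outside the brain was scarce. Myod1, of muscle, was at 0.147 to 0.924 CPM and Krt14, of epidermis, at 0 to 0.302 CPM, while Runx2, of bone, was at 1.41 to 4.18 CPM. Skeletal muscle markers summed to 10.7 to 15.7 CPM and epidermal and nasal epithelium markers to 24.1 to 32.7 CPM.

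The graded form of the sum was fitted in place of the 2 groups. Per doubling of the 4-gene sum, with genotype as a covariate, 42 genes rose (0.257% of 16317 tested) and 6 fell (0.0368%) in edgeR. Cytokines, chemokines and matrix proteases were among the steepest slopes. Il1b, the cytokine interleukin 1 beta, had a slope of 4.46 ± 0.79 (log2 per doubling, SE), the neutrophil chemokine Cxcl3 4.35 ± 0.72, and Trdc, the constant part of the T cell receptor delta chain, 3.10 ± 0.54. Csf3, the granulocyte growth factor, had 3.90 ± 0.57 (adjusted p = 0.00409 in edgeR), Il6 2.59 ± 0.41, Mmp3 (stromelysin) 2.82 ± 0.50, Mmp13 (collagenase 3) 2.89 ± 0.58, and Saa3, an acute-phase protein, 3.04 ± 0.60. Il1a, the chemokine Ppbp and the hyaluronan-linking pentraxin Ptx3 rose by 2.41 ± 0.42, 2.24 ± 0.36 and 1.66 ± 0.31. Of the 25 listed proinflammatory genes 7 were among the 42. Slopes lay above 0 in 50.8% of all genes, in 24 of 24 tested proinflammatory genes (median 1.14), in 17 of 20 general fibroblast markers (0.30), in 10 of 12 arachnoid barrier markers (0.48) and in 9 of 10 border macrophage markers (0.60). They lay above 0 in 17 of 17 interferon genes (1.11) as well, and in 0 of 12 choroid plexus (-0.996) and 0 of 13 ependymal markers (-0.49).

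KO male 1 stood far above the other libraries in several of these genes. Csf3 was at 41.1 CPM in KO male 1 and at 0.0762 to 5.76 CPM in the other 13. Il6 was at 15.4 CPM there and at most 2.73 CPM elsewhere. Saa3 stood at 122.6 CPM against at most 32.4 CPM, and Ptx3 at 275.0 CPM against at most 80.0 CPM. KO male 3 was second for Csf3, Saa3 and Ptx3, and KO female 1 for Il6. Cxcl10, an interferon-induced chemokine, was at 134 CPM in KO male 1 and 77.1 CPM in KO male 3, and did not pass (slope 1.55 ± 0.37, adjusted p = 0.1). Of the 42 genes, 40 were highest in KO male 1 and 29 lowest in KO female 3.

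Of the 20 tested general fibroblast markers 5 were among the 42, namely Nupr1, Cyp1b1, Col3a1, Serping1 and Fstl1, with slopes of 0.90, 0.82, 0.72, 0.65 and 0.56. The other genes given next are on other lists or on none and were named after their values were seen. Lox, the enzyme that crosslinks collagen, rose by 1.39 ± 0.14 (adjusted p = 5.51e-05 in edgeR), the smallest p of the 16317 genes, with 34.5 CPM in KO male 1 and 4.6 to 11.9 CPM in the others. Prg4, a lubricating proteoglycan, rose by 2.27 ± 0.25 and Igfbp3, a binding protein of insulin-like growth factors, by 0.77 ± 0.10. Stra6, Lepr, Apod, Timp1 and Il33 rose by 0.85, 0.65, 0.64, 1.32 and 0.93. Among the 6 that fell were Bcan, a lectican of the brain matrix (-0.32 ± 0.06), Hepacam, an adhesion protein of glia (-0.40 ± 0.08), Slc6a11, a GABA transporter of astrocytes (-0.35 ± 0.06), Col9a3 (-0.53 ± 0.10) and Eomes, a factor of cortical progenitors and Cajal-Retzius cells (-2.30 ± 0.46). Eomes was at 15.7 CPM in KO female 3 and at most 4.43 CPM in the others.

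Both ends of the order mattered for these counts. Without KO male 1, 16 genes rose (0.098% of 16324) and 0 fell, and without KO female 3, 19 rose and 0 fell. Without both, 0 rose and 0 fell, with 198 and 136 genes at an unadjusted p below 0.05. The 16 genes called without KO male 1 held 6 of the 48 called with it (37.5% of the 16 and 12.5% of the 48). The 16 included Apod, Ctsk, Ptgds, Slc6a20a, Stra6, Aldh1a2, Bicc1, Col3a1, Col1a1, Col1a2, Lox and Igfbp3, and none of the listed proinflammatory genes. In that fit 17 of 24 tested proinflammatory genes had slopes above 0 (median 0.30).

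**Figure D3:**
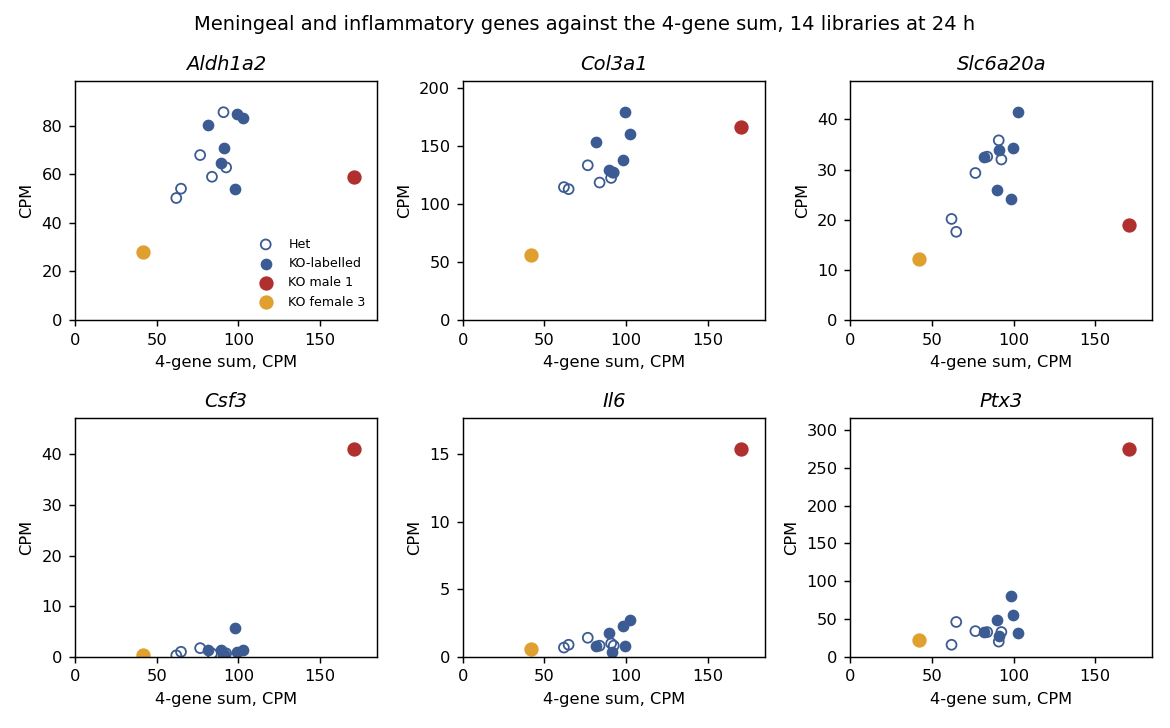
CPM of 6 genes (vertical axes) against the 4-gene sum (horizontal axes, CPM) in the 14 libraries at 24 h, open for Het, filled for KO-labelled, with KO male 1 in red and KO female 3 in yellow. Csf3, Il6 and Ptx3 are high in KO male 1, while Aldh1a2 and Slc6a20a have their lowest value in KO female 3 and are mid-range or low in KO male 1.

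A score that weights the 4 genes equally was fitted after these results were seen. Per SD of the mean of the 4 standardised log2 values, 15 genes rose (0.0919% of 16317 tested) and 0 fell (0%), none of them a listed proinflammatory gene. The lists of arachnoid barrier markers and of fibrillar collagens each held 3 of the 15, and those of general fibroblast markers and of the retinoic acid pathway 2 each. Slopes lay above 0 in 49.9% of all genes, in 10 of 12 arachnoid barrier markers (median 0.35), in 17 of 20 general fibroblast markers (0.17) and in 15 of 18 solute transporters (0.14). Lists other than those of meningeal fibroblasts followed this score too. Slopes lay above 0 in 17 of 17 interferon genes (0.60), 22 of 24 proinflammatory genes (0.25) and 5 of 5 erythroid markers (0.42). The same held for 9 of 10 markers of border macrophages (0.23), which live in the meninges and around vessels. Of choroid plexus markers 0 of 12 (-0.33) and of ependymal markers 0 of 13 (-0.21) had slopes above 0. Without KO female 3 the choroid plexus and ependymal lists turned, with 12 of 12 (0.44) and 11 of 13 (0.16) above 0, while arachnoid barrier markers had 10 of 12 (0.23) and interferon genes 16 of 17 (0.40). Without KO male 1 the proinflammatory list fell to 18 of 24 above 0 (0.05). Of the 15 called genes, 4 were also called with the sum, which is 26.7% of the 15 and 8.33% of the 48. With the sum but without KO male 1, 9 were shared, which is 60% of the 15 and 56.2% of the 16. All 15 were at their lowest in KO female 3. Without that library 0 genes were called, with 504 higher and 365 lower at an unadjusted p below 0.05. Each of the 15 slopes stayed above 0, but the 15 were chosen in a fit that held the remaining libraries. Their signs therefore lend no support. Without KO male 1, 37 rose, the 15 included. DESeq2 called 120 higher and 21 lower.

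The 15 included the retinoid genes Stra6 and Aldh1a2. Stra6 (chromosome 9, 58063788 to 58153996, plus strand, GRCm38, overlapping Ccdc33 on the other strand), the receptor that takes up retinol, was at 44.5 to 64.3 CPM in the higher-sum libraries (median 55.4) and at 19.8 to 60.6 CPM in the lower-sum ones (median 44.4). Its slope was 0.39 ± 0.05 per SD (SE, adjusted p = 0.00352 in edgeR). Aldh1a2 (chromosome 9, 71215789 to 71296243, plus strand), which makes retinoic acid and marks the arachnoid, was at 54.1 to 85.5 CPM (median 71.0) against 28.0 to 80.2 CPM (median 59.0), with a slope of 0.37 ± 0.05. In both genes KO female 3 was far below the rest and the 2 groups overlapped.

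Barrier and transport genes formed the next group. Ptgds (chromosome 2, 25466709 to 25470046, minus strand), the prostaglandin D2 synthase that arachnoid cells secrete into cerebrospinal fluid, was at 319 to 678 CPM (median 399) against 131 to 518 CPM (median 322), and had the steepest slope of the 15, 0.51 ± 0.07 (SE). Gjb2 (chromosome 14, 57098600 to 57104702, minus strand), the gap junction protein connexin 26, was at 21.0 to 38.8 CPM against 10.6 to 35.7 CPM, slope 0.41 ± 0.07. Slc6a20a (chromosome 9, 123634770 to 123678885, minus strand), a proline transporter, was at 19.0 to 41.4 CPM against 12.2 to 32.6 CPM, slope 0.40 ± 0.07. KO male 1, highest for the sum, was the lowest of the higher-sum libraries for Slc6a20a.

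Fibrillar collagen genes gave 3 of the 15. Col3a1 (chromosome 1, 45311538 to 45349706) was at 123 to 179 CPM (median 138) against 56.4 to 154 CPM (median 119), and Col5a2, its neighbour on the other strand (45374321 to 45503282), at 35.0 to 54.1 CPM against 28.5 to 49.3 CPM. Col1a2 (chromosome 6, 4504814 to 4541544) was at 108 to 153 CPM against 57.8 to 138 CPM. The slopes were 0.34 ± 0.05, 0.20 ± 0.03 and 0.29 ± 0.04 per SD (SE). Col1a2 and Col3a1 encode chains of the main fibrils of connective tissue, and Col5a2 a chain that limits fibril width.

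Secreted and signalling proteins made up the rest. Apod, a lipid carrier, was at 89.1 to 119 CPM (median 101) against 48.2 to 105 CPM (median 82.8), slope 0.29 ± 0.04 (SE). Igfbp6, a binding protein of insulin-like growth factor II, was at 8.78 to 17.8 CPM against 5.26 to 14 CPM, slope 0.39 ± 0.07. Anxa1 (annexin A1, a resolver of inflammation) was at 11.9 to 30.01 CPM against 5.04 to 16.8 CPM, slope 0.50 ± 0.07, with its highest value in KO female 1. Ctsk, a collagen-cleaving cathepsin, was at 6.31 to 9.14 CPM against 3.43 to 7.15 CPM, and Thbd (thrombomodulin) at 22.1 to 32.5 CPM against 12.9 to 31.0 CPM. The leptin receptor gene Lepr and the RNA-binding protein gene Bicc1 had slopes of 0.30 ± 0.05 and 0.24 ± 0.04. The groups overlapped in every one of the 15.

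Genes of hyaluronan were read because Tnfaip6 is the targeted gene. Tnfaip6 (chromosome 2, 52038009 to 52056686, plus strand, no annotated overlap) had a log2 difference of 0.00 ± 0.16 (SE) between the groups and a slope of 0.25 ± 0.17 per doubling of the sum (adjusted p = 0.730 in edgeR). The synthase Has2 was at 7.47 to 22.2 CPM against 6.89 to 10.4 CPM, highest in KO male 1, with 0.26 ± 0.20. Has1 was at 0.457 to 1.76 CPM against 0.165 to 1.03 CPM (0.61 ± 0.37). Itih2, a heavy chain that TSG-6 moves onto hyaluronan, was at 11.6 to 24.6 CPM against 7.09 to 19.6 CPM (0.40 ± 0.21). Over the whole list, 16 of 23 tested members lay above 0 (median 0.07) and 0 were called.

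The labels were not used to rank the libraries, so the sum can be compared across them. It was 96.8 ± 35.5 CPM in KO-labelled (SD, n = 8) and 78.4 ± 12.97 CPM in Het libraries (n = 6), a log2 difference of 0.23 (exact permutation test within sex, two-sided, p = 0.4, adjusted 0.667 over 5 comparisons). Males and females differed by 0.15 (94.6 ± 36.7 against 83.2 ± 19.5 CPM, n = 7 each, exact permutation p = 0.587, adjusted 0.686). Without KO female 3 the genotype difference was 0.39 (exact permutation p = 0.0329, adjusted 0.0548). Neither comparison passed adjustment.

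The genotypes were then compared within each sex, a comparison added after the order of the libraries was seen, so its p-values do not stand apart from that view. All 4 KO male libraries were in the higher-sum group and all 3 Het males in the lower-sum group. In males the sum was 114.8 ± 37.3 CPM in KO-labelled (SD, n = 4) and 67.8 ± 7.7 CPM in Het libraries (n = 3), without overlap, a log2 difference of 0.72 (exact permutation p = 0.0286, the smallest that 35 arrangements allow, adjusted 0.0714). In females it was 78.9 ± 26.2 CPM (n = 4) and 89.1 ± 4.6 CPM (n = 3), a difference of -0.25 (exact permutation p = 0.686). The difference between the sexes was 0.97 on the log2 scale (exact permutation of the sex labels within each genotype, p = 0.00857, adjusted 0.0429). This p is exact only if sex has no effect in either genotype. As the difference between the sexes restates the order that prompted it, it is given as a description. Its adjusted p was at or above 0.05 in 12 of the 14 settings that left out 1 library (0.00714 to 0.15 over the 14, all exact permutation tests). KO female 2, whose sex genes go against its label, stayed with the females, and without it the difference was 1.05 (exact permutation p = 0.0114, adjusted 0.0571). With the equal-weight mean the difference was 1.12 SD units (exact permutation p = 0.164, adjusted 0.429).

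**Figure D4:**
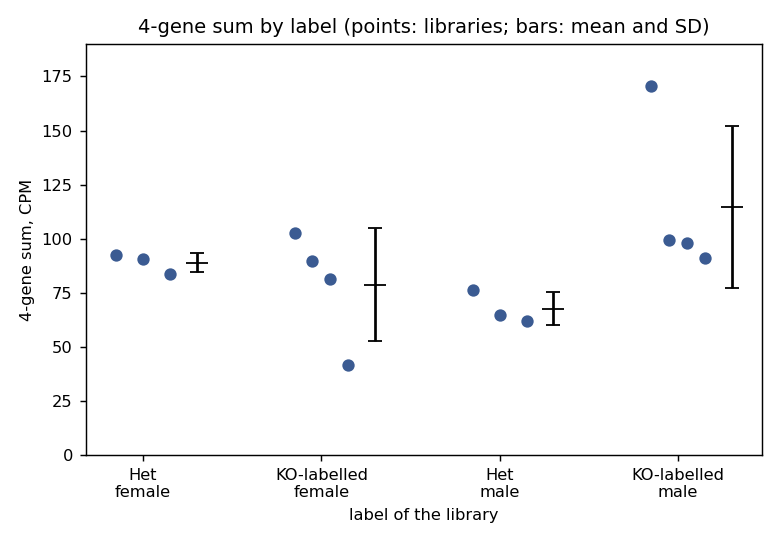
The 4-gene sum in CPM (vertical axis) of each of the 14 libraries at 24 h by genotype and sex label, with the mean and SD of each group beside the points. All 4 KO-labelled males lie above all 3 Het males, while KO-labelled females span 41.8 to 102.6 CPM, around the Het females at 83.8 to 92.5 CPM.

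The difference between higher-sum and lower-sum libraries was itself compared between genotypes by an interaction term, and 0 genes were called in edgeR, with 613 at an unadjusted p below 0.05 and 1 called in DESeq2.

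The 6 libraries of the 4 h table, which the rule did not use, hold the same 4 genes. Their sum of normalised read counts was 457.9, 490.7 and 565.1 in WT 1 to 3 and 276.5, 473.7 and 237.3 in KO-labelled 1 to 3, so that KO 2 lay with WT and KO 1 and KO 3 lay low. Per doubling of the sum, with genotype as a covariate, limma on log2(value + 1) called 26 genes higher (0.171% of 15177) and 8 lower (0.0527%). With the replicate number as a block it called 40 and 11, and without KO 2 it called 0 and 0. Among the 26 were Lox, at 1.64 ± 0.30 (SE, adjusted p = 0.0366), and Vcan, a lectican, at 0.67 ± 0.12. Lox was at 69.8, 88.7 and 98.6 normalised counts in WT and at 56.0, 114.7 and 33.1 in KO-labelled slices.

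The 15 genes that followed the equal-weight mean at 24 h were then read at 4 h. All 15 had a slope above 0, from 0.28 to 1.54 with a median of 0.50, against 50.5% of all genes tested, and 0 of the 15 passed adjustment in limma. Of the alternatives tried, 2 changed this count: 10 of 15 were above 0 without KO 2 and 12 of 15 without KO 3. Anxa1 had the steepest slope (1.54 ± 0.38, SE, adjusted p = 0.0926), then Igfbp6 (1.42 ± 0.48). Aldh1a2 was at 261.6, 300.5 and 290.7 normalised counts in WT and at 215.0, 278.8 and 144.9 in KO-labelled slices (slope 0.79 ± 0.20). Of the 42 genes that rose with the sum at 24 h, 33 were in the 4 h fit and 26 of them had a slope above 0.

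Other RNA moved with the sum at 4 h as well. The mitochondrially encoded genes had 0 of 10 slopes above 0 (median -0.48), and cell cycle genes 23 of 24 (median 0.34). Arachnoid barrier markers had 9 of 10 above 0 (median 0.59) and general fibroblast markers 16 of 20 (0.19). Choroid plexus markers had 2 of 7 above 0 and endothelial markers 8 of 19. The part of these other RNAs in the slopes of the 15 genes was not tested.

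**Figure D5:**
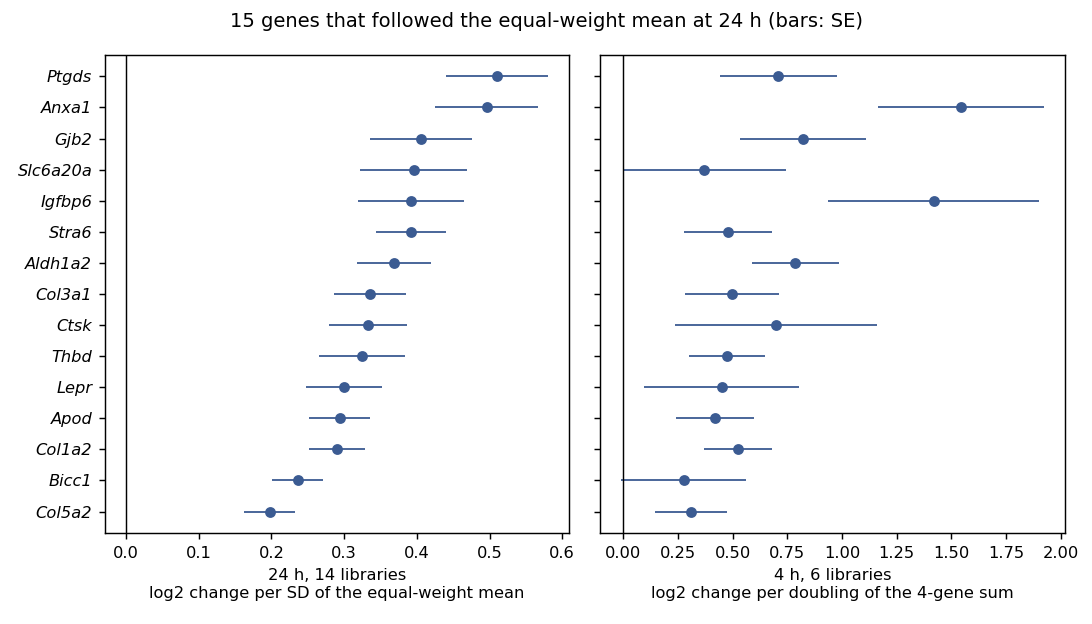
Slopes with SE of the 15 genes that rose with the equal-weight mean at 24 h (left, log2 change per SD, 14 libraries) and of the same genes at 4 h (right, log2 change per doubling of the 4-gene sum, 6 libraries). All points lie above 0 on both sides, from 0.20 to 0.51 at 24 h and from 0.28 to 1.54 at 4 h, with wider errors at 4 h.

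Promoters of the 15 genes were searched for 2 short motifs, as a description. The 300-base RefSeq promoters of GRCm38.p6 cover 250 bases before and 50 after a start, and 12 of the 15 genes matched, with 16 promoters. The forkhead core GTAAACA (either strand) stood in 0 of the 16 and in 3.65% of all 32851 promoters. AGGTCA (either strand), a short element shared by many nuclear receptors, those of retinoic acid among them, stood in 1 of the 16, that of Gjb2, and in 16.3% of all.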

How the data were processed

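RNA was measured in 20 libraries of cultured forebrain slices. Tools listed in the submitters' processing notes are HTSeq, TopHat2 and DESeq2 1.38.3, with no role given, and the build is GRCm38. At 24 h the deposited values are raw counts of reads for 51912 gene identifiers, 51633 of them matched to a symbol in the reference table supplied with the data. At 4 h the deposited values are a signal, that is, read counts divided by a size factor per library, from which whole reads were recovered for 100% of values within a tolerance of 0.05. Since counts had been assumed for it, limma 3.58.1 with a trend was used on log2(value + 1) for genes with a mean of at least 10, and edgeR on the recovered reads was an alternative. A slope at 4 h is on this scale and understates changes of low genes.

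At 24 h, CPM values of the 4 genes were summed and ranked, and edgeR 4.0.16 (R 4.3.3) was run with its quasi-likelihood test, TMM scaling and default filter, with genotype and group, or genotype and a continuous score, as terms. All p-values are two-sided and adjusted by Benjamini and Hochberg over all genes tested, with a threshold of 0.05. The SE of an edgeR value is its size divided by the square root of F. The standardised score used log2(CPM + 0.5). DESeq2 1.42.0 was an alternative. The tests were checked on simulated data.

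Strand use in counting is not given in the sources used here, so a gene and an overlapping gene on the opposite strand may share reads. Precision is limited by the number of libraries, and at 8482933 counts, the shallowest 24 h library, 1 CPM is fewer than 10 reads.

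The members, the 39 lists (620 genes) and the tests were chosen with earlier results of these data known. Named genes were to be the 12 largest rises and 8 largest falls among genes called in the group comparison, up to 4 members of each list with the smallest p, Tnfaip6, Has1, Has2 and Itih2, and defining markers of other cell types. As the group comparison called none, genes called in the graded fits are named in their place, chosen after their values were seen. Same-numbered 4 h libraries deviated together to a small degree: the correlation of their deviations was 0.140, 0.176 and 0.264, all above the 0.1 used here. Between libraries of different number it was -0.218 to 0.0638. A pairing may therefore exist at 4 h. The main 4 h fit, which gave the slopes quoted, held no term for it. The fit with the replicate block held one, but leaves few residual degrees of freedom.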

Additional observations from a re-analysis of the deposited data

Results flagged for a closer look

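Of 154 groups of values examined, 25 had 1 library apart from the others by Dixon's criterion. Chance gives about 1 in 20, but the values examined were mostly those of genes named after they were seen, many of them highest in KO male 1 or lowest in KO female 3, and included the sum itself. Their number is therefore no measure of an excess. KO male 1 stood apart at the top of the higher-sum libraries for the 4-gene sum (170.5 CPM, next 102.6) and for Dcn (142.2 CPM), and at the top of the KO males for the sum (next 99.3 CPM). It also stood apart there for Lox (34.5 CPM), Prg4 (36), Csf3 (41.1), Il6 (15.4), Mmp3 (31.4), Saa3 (122.6), Ptx3 (275.0), Il1a (13.7), Mmp13 (19.0), Ppbp (16.3) and Timp1 (134.5 CPM).

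KO female 3 stood apart among the lower-sum libraries at the low end for Col3a1 (56.4 CPM, next 113.0) and Igfbp3 (46.8, next 84.2). At the high end it stood apart for Eomes (15.7 CPM), Ebf2 (7.26), Acta2 (17.7, a smooth muscle actin), Ttr (2669.4) and Foxj1 (85.6 CPM). KO female 1 stood apart among the higher-sum libraries for Anxa1 (30.01 CPM) and Ttr (1449.5 CPM), and Het male 3 among the lower-sum ones for Tbx15 (6.85 CPM) and Mx1 (2.82 CPM).

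The genotype difference in the 4-gene sum was larger in males than in females by 0.97 on the log2 scale (exact permutation, adjusted p = 0.0429). This comparison was added after the order of the libraries had shown it, so its p lends it no support, and in 12 of 14 settings with 1 library left out the adjusted p was not below 0.05. Its cause was not tested.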

How the results depend on the processing

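The comparison of 7 with 7 libraries called 0 genes in each planned group setting, among them DESeq2, other scaling, no filter, no genotype, genotype by sex, 5 against 5, other rankings, each genotype alone, the replicate block and every library left out (0 to 0). Same-numbered 24 h libraries did not deviate together (r -0.154 to 0.195, 1 of 19 pairs above 0.1), so the replicate block, which called 0, rests on numbers alone. Calls came with a continuous score, 42 higher and 6 lower for the sum and 15 higher for the equal-weight mean. These counts varied. For the sum, DESeq2 gave 76 and 31, no filter 68 and 21, genotype by sex means 24 higher, the replicate block 20 and 3, the choroid plexus level as a covariate 25 and 1, and leaving out 1 library 16 to 50 higher and 0 to 21 lower, lowest without KO male 1. For the equal-weight mean, DESeq2 gave 120 and 21, no filter 38 and 4, genotype by sex means 45 higher, the replicate block 6, and leaving out 1 library 0 to 37 higher and 0 to 4 lower, 0 without KO female 3. Without KO male 1 and KO female 3 together both scores gave 0. The interaction with genotype gave 0 to 0 calls with each library left out, 1 with DESeq2, 61 with no filter and 1 with 5 against 5.

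At 4 h, 26 and 8 calls became 60 and 32 with no filter, 0 and 0 without the genotype term, 40 higher with the replicate block, 61 and 23 with the equal-weight mean, and 0 to 79 higher and 0 to 38 lower with 1 library left out, 0 without KO 2. The genotype difference of the sum was 0.104 to 0.394 with 1 library left out and 0.239 with the replicate block. The sex difference was -0.00394 to 0.243, below 0 without KO male 1 or KO female 3 (-0.000514 and -0.00394), and -0.0587 with the equal-weight mean. The difference between the sexes in the genotype difference was 0.686 to 1.12 with 1 library left out (exact permutation, adjusted p 0.00714 to 0.15), with the adjusted p below 0.05 only without KO female 1 or Het male 3, and 1.12 with the equal-weight mean (adjusted p = 0.429). The causes were not tested. Of 2243 values of 68 named genes under alternatives, 2163 moved by less than the error or kept their side and 80 moved. Genes near 1 CPM are limited by depth.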

Other observations

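Immediate early genes, which neurons and glia switch on within minutes of a stimulus, followed the 4-gene sum in sign: 23 of 25 had slopes above 0 per doubling of the sum (median 0.32), beside 50.8% of all genes, with 0 called. In the group comparison 13 of 25 lay above 0 (median 0.01). Erythroid markers, of blood left in the slices, had 5 of 5 slopes above 0 (median 0.53). Their summed level was 56.0 to 224.6 CPM in the higher-sum libraries (median 82.2) and 41.3 to 160.9 CPM in the lower-sum ones (median 93.8). It was highest in KO female 1 and lowest in KO female 3, and its median was lower in the higher-sum group. In the group comparison their median log2 difference was -0.69 within Het libraries and 0.64 within KO-labelled ones. Striatal neuron markers had 16 of 16 slopes above 0 (median 0.28), while their summed level was 1279 CPM at the low end of both groups. These low values were those of KO female 1 and KO female 3, the 2 libraries with the highest Ttr. With the equal-weight mean 13 of 16 striatal slopes lay above 0 (0.04), and without KO female 3 it was 0 of 16 (-0.18). These values are given as a description.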
